A study of Mus musculus with 6 samples.

Results

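The mRNA levels of 10 genes of the oxidative stress response were followed in mouse embryonic stem (ES) cells: Nfe2l2, which encodes the transcription factor NRF2, its inhibitor Keap1, 7 classical NRF2 targets (Nqo1, Gclm, Gclc, Hmox1, Txnrd1, Srxn1 and Slc7a11) and catalase (Cat). They were picked by gene symbol, and all 10 were present among the 22602 genes of the deposited expression table. The 3 Sim2 expressing samples were the clones A6, B8 and C4, ES lines with a Flag-tagged mouse Sim2 transgene at the ROSA26 locus, driven by a modified CMV promoter that becomes active once tetracycline is removed and followed by a Venus reporter. The 3 control samples, EB3-0, EB3-1 and EB3-2, were independent cultures of EBRTcH3 (EB3), the parental line, which lacks the Sim2-Flag sequence. All 6 cultures spent 26 h in tetracycline-free medium with LIF, serum and 2-mercaptoethanol, a reducing agent. Each clone was sequenced from 1 culture, so an effect of SIM2 and a difference between clonal lines cannot be told apart. With no replicate culture per clone, the p-values set the difference between the groups against the spread within them. That spread lies between clones for Sim2 and between cultures of 1 line for EB3.

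NRF2 is a basic leucine zipper factor that is made constantly and destroyed constantly. KEAP1 holds it in the cytoplasm and hands it to a CUL3 ubiquitin ligase, and oxidants or electrophiles that modify cysteines of KEAP1 stop this, after which NRF2 enters the nucleus, pairs with a small MAF protein and binds antioxidant response elements (ARE) near its target genes. Its targets make glutathione, recycle thioredoxin, reduce quinones, break down heme and supply NADPH. Catalase is the peroxisomal enzyme that splits hydrogen peroxide into water and oxygen, and it is controlled by several stress factors besides NRF2.

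The core ARE, TGACNNNGC, was searched on both strands of the 500 bases before the listed start of each gene (genome build mm9), because this is the sequence through which NRF2 reads its targets. It was present in 3 of the 10 windows, those of Nfe2l2, Gclm and Srxn1, against 18.5% of the 22598 windows of all genes. The matches are given 5′ to 3′ on the strand that carries the core, with the core in capitals.
Nfe2l2, 262 bases before the start, minus strand, chr2:75542942-75542970: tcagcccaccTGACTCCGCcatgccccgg
Gclm, 169 bases before the start, minus strand, chr3:121948331-121948359: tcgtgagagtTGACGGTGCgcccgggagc
Srxn1, 178 bases before the start, minus strand, chr2:151931278-151931306: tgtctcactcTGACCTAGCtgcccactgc
The gene annotation begins Srxn1 upstream of the listed start, at 151931252, so that match lies inside the annotated gene. The stricter form TGACTCAGC, a special case of the core, was found in 0 of 10 windows of 2000 bases, against 2.82% of all windows. TACGTG, the element known for SIM and ARNT dimers, was found in 0 of 10 windows of 500 bases, against 5.89% of all. These letters describe the windows searched and say nothing of binding in these cells or of elements farther away.

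The labels were checked first. Sim2 mRNA lay between 168 and 212 RPKM in the clones and between 0.0917 and 0.130 RPKM in EB3, where RPKM is the read count of a gene scaled to the length of its cDNA and to the depth of the library. Summed over all listed genes, the recovered reads of a library numbered 25095861 to 28269340, and a member was covered by 486 to 16471 of them. Sequencing was paired-end, and whether both mates of a pair are counted was not tested. ES cell markers were abundant in all 6 libraries. Pou5f1, Nanog, Sox2, Klf4, Esrrb and Zfp42 summed to 2906 to 3124 RPKM in the clones and 3079 to 3412 RPKM in EB3, with Pou5f1 the largest part. All clones were below EB3 for Zfp42 (limma, adjusted p = 0.145) and above it for Esrrb (limma, adjusted p = 0.346). The groups overlapped for the other ES cell markers. Markers of primitive endoderm summed over 6 genes to 2.92 to 3.28 RPKM in the clones and 1.71 to 2.30 in EB3, and those of trophectoderm over 5 genes to 2.69 to 4.92 and 2.11 to 2.25 RPKM. Fibroblast markers summed over 6 genes to 10.7 to 13.8 and 10.1 to 13.3 RPKM, most of it Thy1, with Fap at 0 in every library. Neural markers summed over 5 genes to 85.05 to 106 RPKM in the clones and 125 to 143 RPKM in EB3, most of it Tubb3. Tubb3 itself was at 81.2 ± 12.6 against 123 ± 10.1 RPKM (SD, n = 3 each, with a limma adjusted p of 0.0751), whereas Nes, another neural marker, was above EB3 in all clones at 8.84 ± 0.466 against 5.93 ± 0.158 RPKM (limma, adjusted p = 0.0787). The part of the other cell types in the results was not tested, and in such bulk RNA fewer expressing cells and less RNA per cell cannot be told apart.

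In EB3 the 10 genes spanned a wide range of levels. Txnrd1 was the most abundant at 123 ± 1.495 RPKM (SD, n = 3), in the 97.7th percentile of all listed genes by its mean over the 6 libraries. Below it came Hmox1 (83.7 ± 4.34), Gclm (60.5 ± 2.05), Nfe2l2 (51.9 ± 1.99), Srxn1 (35.6 ± 3.34), Nqo1 (32.4 ± 3.48), Cat (24.2 ± 1.47), Keap1 (16.0 ± 1.16), Gclc (15.3 ± 2.01) and Slc7a11 (2.39 ± 0.148 RPKM). In this order the EB3 ranges of Srxn1 and Nqo1 overlapped, and so did those of Keap1 and Gclc, while the other neighbours were apart. The catalytic subunit Gclc was thus measured at a lower level than the modifier subunit Gclm in every library, with a Gclm to Gclc ratio of 3.99 ± 0.542 in EB3 and 4.52 ± 0.478 in the clones (SD, n = 3 each). NRF2 mRNA exceeded that of Keap1 by a factor of 3.26 ± 0.285 in EB3 and 3.06 ± 0.159 in the clones.

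Set against EB3, 9 of the 10 members had higher mean levels in the Sim2 expressing cells, Gclc and Slc7a11 only slightly. Hmox1 had a lower one, and no member passed the limma test over all genes. In 6 of the 10 members (Nfe2l2, Keap1, Nqo1, Gclm, Txnrd1 and Cat) the 3 clone values were all above the 3 EB3 values, a pattern found in 12.7% of the 11595 tested genes. In 1 member, Hmox1, they were all below, as in 13.4% of tested genes. In either direction this makes 7 of 10 members against 26.1% of tested genes, and the groups overlapped for Gclc, Srxn1 and Slc7a11. At an adjusted p under 0.05 (limma on log2(RPKM + 0.5), adjusted over all tested genes by the Benjamini-Hochberg method) 0 members were called, where 0.699% of tested genes were, and voom (limma) on the recovered reads also called 0. At an unadjusted p under 0.05 there were 7 of the 10 members, against 17.8% of tested genes. The median log2 fold change of the members was 0.26, and that of all tested genes was -0.01. The members were proposed with results of these libraries known, and Cat is among the genes that the study singled out on these same libraries, so these counts are a description. Leaving out EB3-0 moved the members called from 0 to 2 (Txnrd1 and Cat), while the genes called over the whole table went from 81 to 694, or 5.99% of those tested. Leaving out any other library left the members called at 0.

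**Figure D1:**
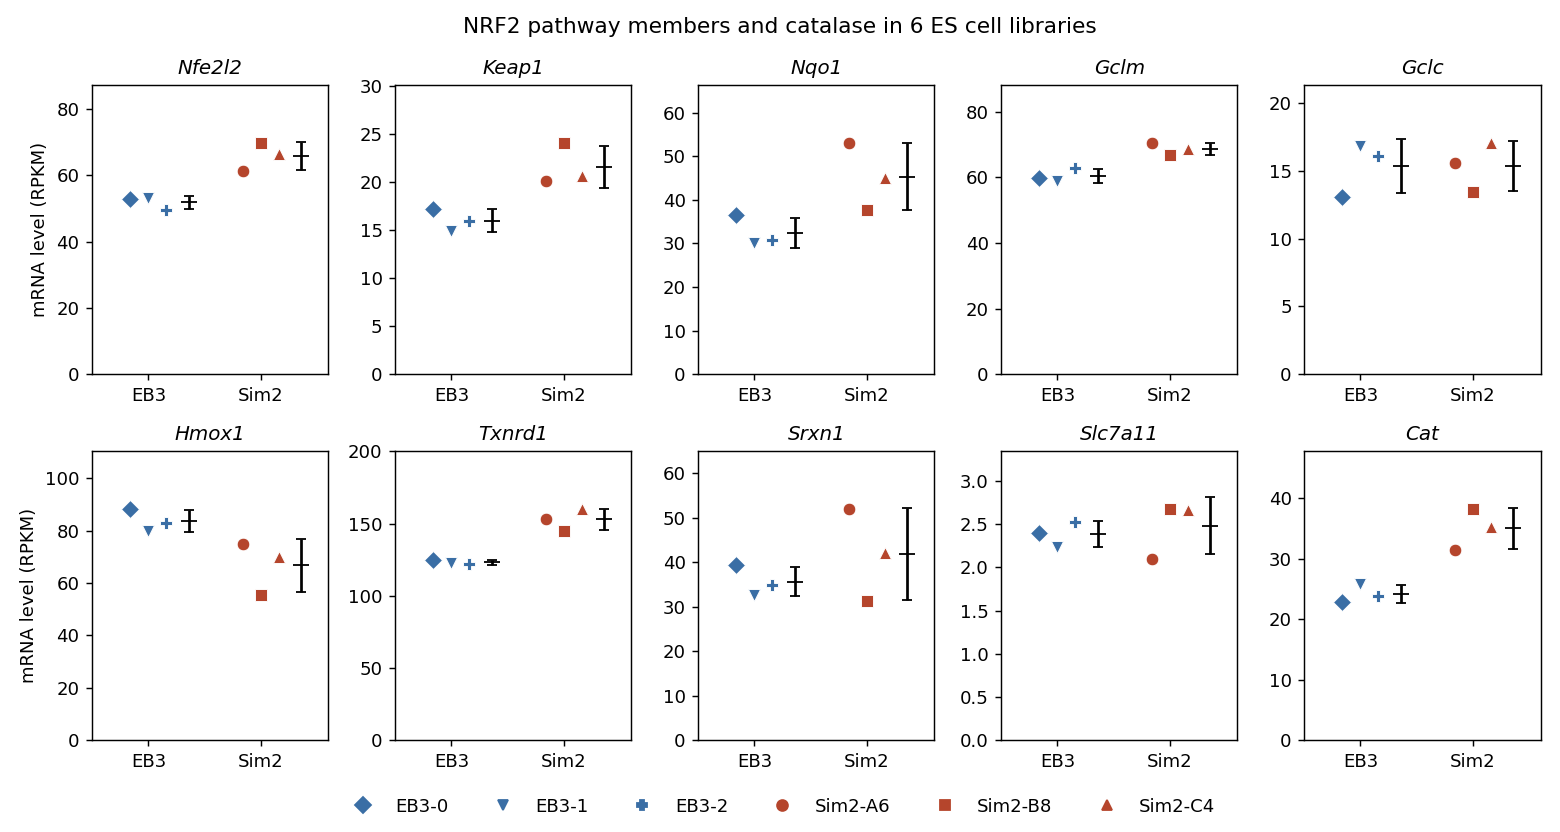
mRNA level in RPKM (vertical axes, each starting at 0) of the 10 genes in each EB3 culture (blue) and each Sim2 clone (red), with the mean and SD (n = 3) as black bars. The groups are apart for Nfe2l2, Keap1, Nqo1, Gclm, Txnrd1 and Cat, where the clones lie higher, and for Hmox1, where they lie lower.

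**Figure D2:**
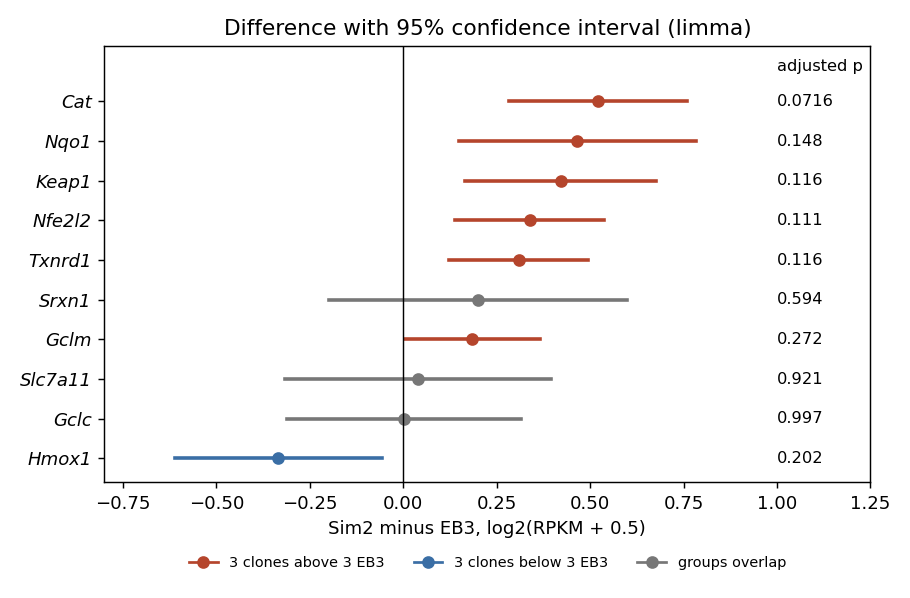
Difference between Sim2 clones and EB3 on the log2(RPKM + 0.5) scale (horizontal axis) for each member, with its 95% confidence interval and its adjusted p from limma at the right. The estimates run from -0.33 for Hmox1 to 0.52 for Cat, and each adjusted p is above 0.05.

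Nfe2l2 (chromosome 2, 75513576 to 75542698, minus strand) encodes NRF2 itself. It was measured at 61.3, 69.9 and 66.4 RPKM in A6, B8 and C4, and at 52.8, 53.3 and 49.6 RPKM in EB3-0, EB3-1 and EB3-2. The lowest clone was above the highest culture, and the ratio of the group means was 1.27. The log2 fold change was 0.34 (95% confidence interval 0.14 to 0.54; limma, adjusted p = 0.111), with p = 0.1 by exact permutation, the minimum possible for 2 groups of 3 libraries.

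Keap1 (chromosome 9, 21034174 to 21043776, minus strand), the sensor that directs NRF2 to degradation, lay on the same side. Its levels were 20.1, 24.1 and 20.6 RPKM in A6, B8 and C4, against 17.2, 14.8 and 15.9 RPKM in EB3-0, EB3-1 and EB3-2. All 3 clones were above all cultures, with B8 highest. The difference was 0.42 on the log2 scale (0.17 to 0.68; limma, adjusted p = 0.116; exact permutation p = 0.1). Activator and inhibitor thus differed in the same direction, and their ratio overlapped between the groups, at 2.90 to 3.22 in the clones and 3.08 to 3.59 in EB3.

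Among the targets, Nqo1 (chromosome 8, 109912125 to 109927105), a quinone reductase widely used as a readout of NRF2, had the largest difference. It was at 53.1, 37.7 and 44.9 RPKM in A6, B8 and C4, and at 36.4, 30.1 and 30.7 RPKM in EB3-0, EB3-1 and EB3-2. B8 was only just above EB3-0, and A6 was well apart. The log2 fold change was 0.47 (0.15 to 0.78; limma, adjusted p = 0.148; exact permutation p = 0.1). It was 0.35 when A6 was left out and 0.59 when B8 was. With each library's trend with cDNA length removed, Nqo1 was called (0.51; limma, adjusted p = 0.0483), in a fit that called 2.49% of all tested genes.

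Txnrd1 (chromosome 10, 82296696 to 82360469, plus strand) encodes the cytosolic reductase that recycles thioredoxin. Its level was 153, 145 and 160 RPKM in A6, B8 and C4 and 125, 123 and 122 RPKM in EB3-0, EB3-1 and EB3-2. The EB3 cultures were close together and the clones were all higher. The log2 fold change was 0.31 (0.12 to 0.50; limma, adjusted p = 0.116; exact permutation p = 0.1). Without EB3-0 it was 0.32 and passed the test (limma, adjusted p = 0.0404), in a fit that called 5.99% of all tested genes. The listed gene Eid3 lies inside Txnrd1 on the same strand, and its level of 0.281 to 1.20 RPKM was small beside that of Txnrd1.

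The 2 subunits of glutamate-cysteine ligase, the rate-limiting enzyme of glutathione synthesis, were measured at different distances from EB3. Gclm (chromosome 3, 121948510 to 121969566), the modifier subunit, was at 70.6, 66.9 and 68.8 RPKM in A6, B8 and C4 and at 59.7, 58.9 and 62.8 RPKM in the EB3 cultures. The groups did not overlap, and the log2 fold change of 0.18 (0.00 to 0.36; limma, adjusted p = 0.272; exact permutation p = 0.1) was the smallest of the 7 separated members. Gclc (chromosome 9, 77602342 to 77642296), the catalytic subunit, was at 15.5, 13.4 and 17.1 RPKM in the clones and at 13.1, 16.9 and 16.1 RPKM in EB3. Both groups covered nearly the same range, with a log2 fold change of 0.00 (-0.31 to 0.32; limma, adjusted p = 0.997; exact permutation p = 1). The ratio of Gclm to Gclc overlapped between the groups (exact permutation p = 0.3, where 0.1 is the minimum).

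Slc7a11 (chromosome 3, 50168858 to 50247535), the cystine transporter that feeds glutathione synthesis, was the least abundant member. It was at 2.10, 2.68 and 2.66 RPKM in A6, B8 and C4 and at 2.40, 2.23 and 2.53 RPKM in EB3. The ranges overlapped, and the log2 fold change was 0.04 (-0.32 to 0.40; limma, adjusted p = 0.921). Its value is uncertain where reads were shared, because its transcript has 23 stretches of at least 200 bases with at least 90% identity elsewhere in the genome, the longest of 591 bases. The transcript of Gclm has 4 such stretches of up to 205 bases, and for the other 8 transcripts 0 were found.

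Srxn1 (chromosome 2, 151931466 to 151937089) encodes sulfiredoxin, which repairs overoxidized peroxiredoxins. It was at 52.0, 31.3 and 42.0 RPKM in A6, B8 and C4, and at 39.3, 32.7 and 34.9 RPKM in EB3-0, EB3-1 and EB3-2. A6 and C4 were above all cultures while B8 was below all of them. The log2 fold change was 0.20 (-0.20 to 0.60; limma, adjusted p = 0.594), and it ranged from 0.03 without A6 to 0.39 without B8.

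Hmox1 (chromosome 8, 77617517 to 77624492), heme oxygenase 1, breaks heme into biliverdin, iron and carbon monoxide and is repressed by BACH1 as well as activated by NRF2. It was the only member with a negative log2 fold change. Its level was 74.7, 55.5 and 69.9 RPKM in A6, B8 and C4, against 88.4, 79.9 and 82.8 RPKM in EB3-0, EB3-1 and EB3-2. Each clone was under each culture, B8 by the most. The log2 fold change was -0.33 (-0.61 to -0.06; limma, adjusted p = 0.202; exact permutation p = 0.1), and without B8 it was -0.21.

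Cat (chromosome 2, 103294061 to 103325310, minus strand) had the largest difference and the smallest p of the 10 genes. Catalase mRNA was at 31.5, 38.3 and 35.3 RPKM in A6, B8 and C4 and at 22.9, 25.8 and 23.9 RPKM in EB3-0, EB3-1 and EB3-2. The gap between the lowest clone and the highest culture was wider than the spread of the cultures. The ratio of the means was 1.45, with a log2 fold change of 0.52 (0.28 to 0.76; limma, adjusted p = 0.0716; exact permutation p = 0.1), and 150 of the tested genes had a smaller p. Cat was called without EB3-0 (0.48, limma adjusted p = 0.0448) and after removal of the length trend (0.53, limma adjusted p = 0.0396). Those fits called 5.99% and 2.49% of all tested genes. In the other 14 alternatives Cat was not called, with a limma adjusted p up to 0.260. The 3 tested genes on either side of Cat were also read, a choice made after its values were seen. 5 of them had log2 fold changes between -0.23 and 0.27 with overlapping groups, and the last, Lmo2, which starts 485133 bases away, had 1.38 (limma, adjusted p = 0.0216).

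The order of the clones differed between members. B8 was the highest clone for Nfe2l2, Keap1, Slc7a11 and Cat and the lowest for the other 6 members. Relative to the mean of A6 and C4, B8 differed by 0.13 for Nfe2l2, 0.24 for Keap1 and 0.20 for Cat on the log2 scale, and by -0.57 for Srxn1, -0.38 for Hmox1, -0.37 for Nqo1 and -0.27 for Gclc. The clone with the most Nfe2l2 mRNA thus had the least Nqo1 and Srxn1 mRNA. Among tested genes these offsets were not extreme for Cat (76.9th percentile) or Nqo1 (10.7th), while that of Srxn1 was at the 4.97th percentile, and B8 was the highest clone in 40.5% and the lowest in 40.3% of all tested genes. Each clone is 1 library, so these offsets have no test.

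**Figure D3:**
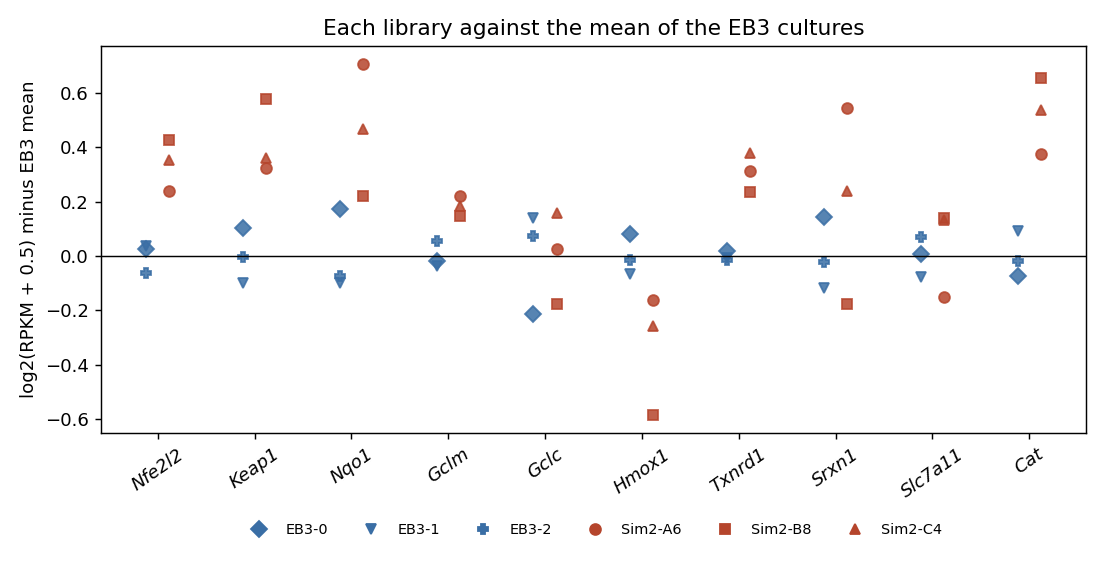
log2(RPKM + 0.5) of each library minus the mean of the EB3 cultures (vertical axis) for the 10 genes, with EB3 cultures in blue and Sim2 clones in red. B8 (red squares) is the highest clone for Nfe2l2, Keap1 and Cat and the lowest for Nqo1, Hmox1 and Srxn1, which reaches -0.18 in B8 and 0.54 in A6.

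The genes whose levels followed Nfe2l2 most closely over the 6 libraries were Git1, Gstt2, Gfra3, Rtl1 and G6pdx, with Pearson's r of log2(RPKM + 0.5) between 0.991 and 0.994. G6pdx, the first enzyme of the NADPH-yielding pentose phosphate pathway, and Gstt2, a glutathione transferase, were 2 of these 5. Rgma, Actg1, Casq1 and Eef2k were among the genes most like Cat, with r between 0.991 and 0.995. Among the members, r with Nfe2l2 was 0.978 for Cat and 0.934 for Keap1, against 0.134 for Srxn1 and -0.889 for Hmox1. Nqo1 and Gclm, whose groups were also apart, had r of 0.634 and 0.758 with Nfe2l2. The 6 libraries fall into 2 groups, so r reflects the difference between groups as well as the order within them, and 101 tested genes had an r above 0.95 with Nfe2l2.

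The wider pathway was read from lists of 81 further genes (peroxisomal and ATF4 lists not counted), of which 80 were in the table and 72 were tested. An unadjusted p under 0.05 was found for 19 of these 72, against 17.8% of all tested genes. The carbonyl reductase Cbr3 was the 1 called, where 0.699% of all tested genes were. Clone values were all above (14 genes) or all below (7 genes) EB3 in 29.2%, a share near the 26.1% of all tested genes. The other regulators included the KEAP1-binding autophagy adaptor Sqstm1, at 115 ± 10.1 against 89.1 ± 9.28 RPKM (clones against EB3, SD and n = 3 here and in the lists that follow; log2 fold change 0.36; limma, adjusted p = 0.148). Over all tested genes, 12.7% had all clones above and 13.4% all clones below. Of the 15 tested regulators, Nfe2l2 and Keap1 included, 0 were called (7 at an unadjusted p under 0.05). In 6 all clones lay above and in 1 all lay below, together 46.7%, against 26.1% of all tested genes. The one below was Cul3, the scaffold of the ligase, named after its values were seen, at 42.4 ± 0.760 against 52.8 ± 5.32 RPKM (limma, adjusted p = 0.163). Rbx1, of the same ligase, was also named after its values were seen. All clones lay above all cultures for Rbx1, at 52.9 ± 2.07 against 46.2 ± 0.958 RPKM (limma, adjusted p = 0.26). Dpp3, which competes for KEAP1, was at 86.9 ± 5.73 against 72.1 ± 9.84 RPKM with overlapping groups, and Nfe2l1, a relative of NRF2, was at 82.5 ± 7.002 against 77.2 ± 6.27 RPKM. Cand1, which exchanges the adaptors of cullin ligases, was at 56.3 ± 0.709 against 52.0 ± 3.18 RPKM with all clones above all cultures (limma, adjusted p = 0.515). Bach1, the repressor that competes for AREs, was named after its values were seen and was at 9.29, 14.2 and 10.2 RPKM in A6, B8 and C4 and at 4.85, 7.96 and 8.59 RPKM in EB3-0, EB3-1 and EB3-2 (0.64; limma, adjusted p = 0.210). Bach1 was highest in B8, the clone in which Hmox1 was lowest. B8 is 1 library, and it was the highest clone in 40.5% and the lowest in 40.3% of all tested genes. A link between Bach1 and Hmox1 was not tested.

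Quinone and carbonyl reduction held the only called gene of the lists. Cbr3 (chromosome 16, 93683464 to 93691236) was at 108, 105 and 96.1 RPKM in A6, B8 and C4 and at 43.3, 36.0 and 31.6 RPKM in EB3-0, EB3-1 and EB3-2. It rose by 1.48 on the log2 scale (limma, adjusted p = 0.00378). Cbr1, a related gene on the same chromosome, was at 81.5 ± 9.34 against 73.1 ± 9.58 RPKM (limma, adjusted p = 0.555). The 11 tested genes included the member Nqo1, which is 1 of the 3 that lay above EB3 in all clones. With the 1 that lay below, this makes 36.4%, against 26.1% of all tested genes. The list median was 0.16.

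Of all tested genes, 12.7% lay above EB3 in all clones, 13.4% lay below, 0.699% were called and 17.8% had an unadjusted p under 0.05. NADPH supply had a median of 0.23 over 8 genes, with 4 above EB3 in all clones, 0 below and 0 called (3 at an unadjusted p under 0.05). Its examples were Pgd at 147 ± 7.14 against 110 ± 14.8 RPKM (0.42; limma, adjusted p = 0.116), Tkt at 155 ± 5.61 against 136 ± 20.0 RPKM, Taldo1 at 134 ± 6.80 against 149 ± 32.2 RPKM and Pgls at 56.0 ± 8.99 against 57.3 ± 17.4 RPKM. Of the 16 tested genes of the thioredoxin list, Txnrd1 and Srxn1 among them, 0 were called (2 at an unadjusted p under 0.05), 2 lay above and 1 below, and the median was -0.07. Prdx1, the most abundant, was at 637 ± 41.8 against 716 ± 92.1 RPKM, and Txn2, Prdx6 and Prdx2 also overlapped between the groups. The glutathione list had 19 tested genes, the members Gclm, Gclc and Slc7a11 among them. Its median was 0.06, with 3 genes above (Gclm included), 3 below and 0 called (6 at an unadjusted p under 0.05). The most abundant gene of that list, Gpx1, was at 606 ± 70.6 against 705 ± 95.4 RPKM. Separated groups made 50.0% of the NADPH list, 18.8% of the thioredoxin list and 31.6% of the glutathione list, against 26.1% of all tested genes.

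Separated groups made 33.3% of the heme and iron list and 14.3% of the superoxide and peroxide list, against 26.1% of all tested genes. The shares were 27.8% for the peroxisomal list and 23.5% for the ATF4 list. An unadjusted p under 0.05 was found in 17.8% of all tested genes. For heme and iron the median was 0.05 over 9 genes, with 0 called (2 at an unadjusted p under 0.05). The member Hmox1 is among these 9 and among those with separated groups. The ferritin gene Fth1 was at 824 ± 154 against 766 ± 126 RPKM and the constitutive heme oxygenase Hmox2 at 36.1 ± 1.54 against 35.4 ± 4.93 RPKM. Among the enzymes that remove superoxide and peroxide, Sod1 was at 322 ± 11.6 against 342 ± 70.6 RPKM and Sod2 at 67.1 ± 1.68 against 68.9 ± 1.49 RPKM, both with overlapping groups, and Cat was the only one of the 7 tested genes of that list with separated groups (0 called, 2 at an unadjusted p under 0.05). Other peroxisomal genes had a median of 0.10 with Cat included, with 4 of 18 above, 1 below and 0 called (5 at an unadjusted p under 0.05), and the most abundant of them, Pex19, was at 32.5 ± 2.12 against 34.6 ± 1.24 RPKM. ATF4 is another stress factor that drives Slc7a11. Its list, Slc7a11 included, had a median of -0.17 over 17 genes, with 0 above, 4 below and 0 called (4 at an unadjusted p under 0.05). Atf4 itself was at 618 ± 67.4 against 548 ± 45.1 RPKM. Psat1, a serine synthesis enzyme, was at 284 ± 28.7 against 363 ± 46.2 RPKM (log2 fold change -0.35, 95% confidence interval -0.63 to -0.06; limma, adjusted p = 0.2). The groups overlapped for Asns and Shmt2, the next in mean level.

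**Figure D4:**
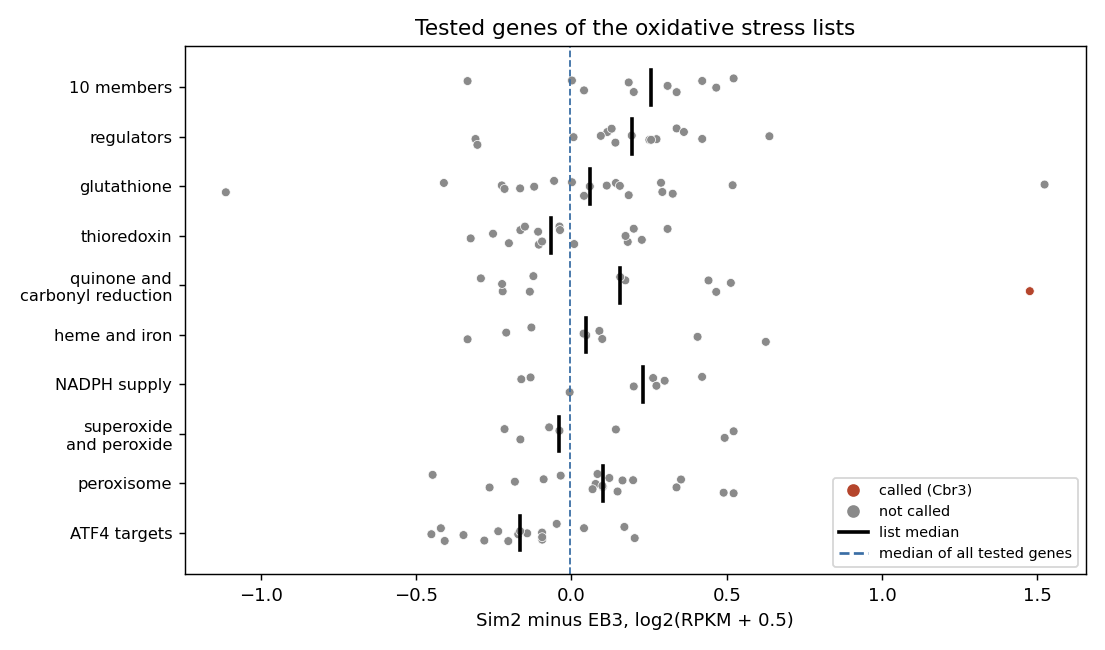
Difference between Sim2 clones and EB3 on the log2(RPKM + 0.5) scale (horizontal axis) for each tested gene (points) of the members and 9 lists, with list medians as black bars and the median of all tested genes as a dashed line. Cbr3, in red at 1.48, is the only called gene, and list medians run from -0.17 for ATF4 targets to 0.26 for the 10 members.

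The adjusted p of the members depended on which EB3 cultures were in the fit. Cat, Nfe2l2, Keap1, Txnrd1 and Nqo1 reached their lowest values with EB3-0 left out or the length trend removed, and their highest with EB3-1 or EB3-2 left out or the 2 averaged as 1 library, from 0.260 for Cat to 0.385 for Nqo1 (limma, adjusted p). The direction of each of these 5 was the same in 16 of 16 alternatives.

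**Figure D5:**
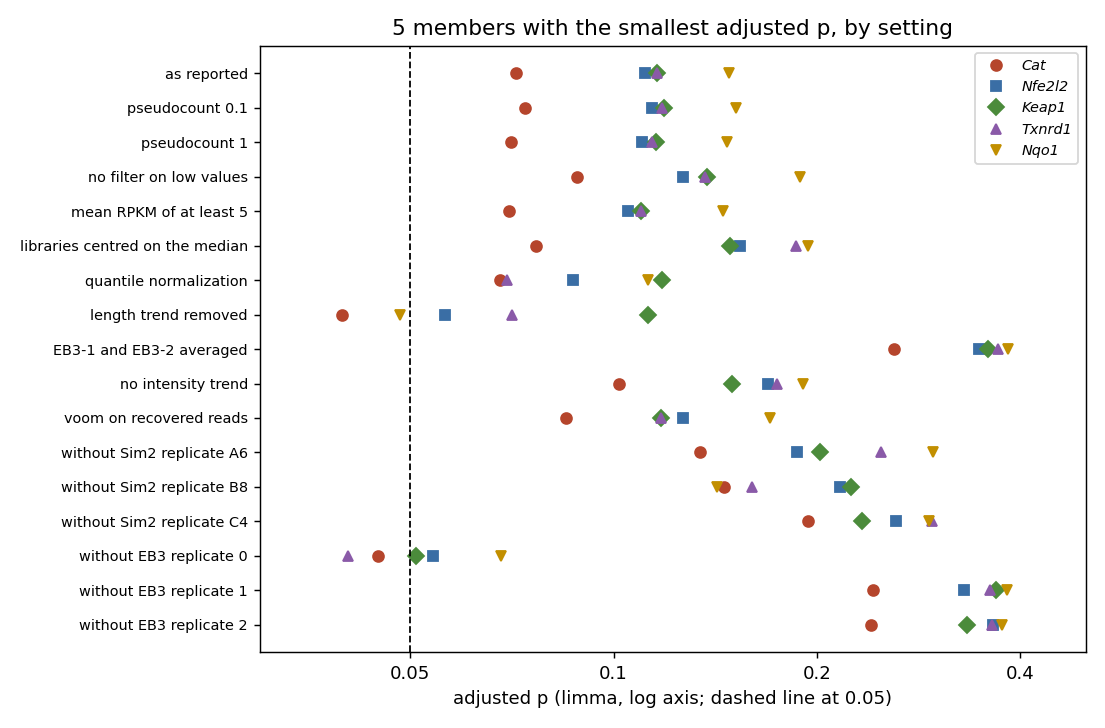
Adjusted p from limma (horizontal axis, log scale, dashed line at 0.05) of 5 members under the reported setting and each of 16 alternatives (rows). Cat crosses the line in 2 settings, Nqo1 and Txnrd1 in 1 each, and Nfe2l2 and Keap1 in 0.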

How the data were processed

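The authors mapped paired-end mRNA-Seq reads to mm9 with BWA, counted exon coverage per gene with a custom pipeline and deposited RPKM for each library, with gene positions and cDNA lengths. Versions, the annotation release, strand use and the treatment of reads with several positions are not given in the sources used here. The authors tested counts with edgeR. The values being RPKM, limma 3.58.1 (R 4.3.3; lmFit, eBayes with a trend) was used here on log2(RPKM + 0.5) for the 11595 of 22602 genes whose mean RPKM reached 1. This scale understates the change of low genes. An adjusted p under 0.05 is a call. RPKM times cDNA length came out as whole reads (within 0.01) for 100% of values, which gave the depths. Single genes were also tested with exact permutation of the libraries (2-sided, on mean RPKM). The fit was tested on simulated counts. These had the same setting of spread for all genes and no differences between clones or between cultures, so they cannot show how the fit handles such differences.

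The members and lists were chosen with earlier results of these data known. Named genes are the members, called list genes, up to 4 further genes of each list by mean level, and the 5 genes most correlated with Nfe2l2 and with Cat (1 of which is not reported here), besides those said to be named after their values were seen. List genes were matched by symbol. Positions are 1-based mm9 coordinates, and all 10 overlapped the annotated gene (GENCODE on NCBIM37, the same build). Transcripts of the 10 members were compared with the genome with BLAST 2.17.0, keeping matches of at least 200 bases and 90% identity. Alternatives were other pseudocounts, filters, scalings and variance models, removal of the length trend (natural spline, 5 degrees of freedom), averaging of EB3-1 and EB3-2, and leaving out each library.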

Additional observations from a re-analysis of the deposited data

How the results depend on the processing

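The 81 genes called over the whole table (40 higher in the clones, 41 lower) became 28 with no filter on low values, 289 with the length trend removed, 6 with EB3-1 and EB3-2 averaged as 1 library and 30 without an intensity trend. Leaving out 1 library gave 6 to 694, the most without EB3-0. The cause was not tested. Members called moved from 0 to 2 with the length trend removed (Nqo1 and Cat), and leaving out 1 library gave 0 to 2 (Txnrd1 and Cat without EB3-0). The small log2 fold change of Gclc turned to -0.01 with libraries centred on the median (-0.0142), with quantile normalization (-0.0115) and with the length trend removed (-0.0112), and ranged from -0.106 to 0.0916 when 1 library was left out. That of Slc7a11 was -0.12 with the length trend removed and -0.0089 to 0.1365 when 1 library was left out, with reversals without B8 and without C4. It was not tested at a mean RPKM of at least 5. The other 8 members kept their direction in 16 of 16 alternatives. The median of all tested genes moved by less than 0.1 under each scaling. No paired analysis was possible because the clone names and culture numbers are not shared between the groups.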

Other observations

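3 glutathione-dependent enzymes with separated groups are given here, named after their values were seen. Gpx2, a glutathione peroxidase known as an NRF2 target in gut epithelium, was at 52.5, 237 and 33.1 RPKM in A6, B8 and C4, and at 29.3, 23.8 and 24.1 RPKM in EB3-0, EB3-1 and EB3-2. All clones were above all cultures, but B8 stood far from the other two, and the adjusted p was 0.241 (limma). Gsta3, a glutathione transferase, was at 5.19, 2.92 and 3.20 RPKM in A6, B8 and C4 and at 8.95, 8.43 and 8.11 RPKM in EB3, a log2 fold change of -1.11 (limma, adjusted p = 0.0602). Gpx3, the secreted glutathione peroxidase, was at 12.1 ± 1.20 against 16.3 ± 2.43 RPKM (clones against EB3, SD, n = 3; limma, adjusted p = 0.176).

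Nqo1 and Hmox1, 2 standard readouts of NRF2, lay on opposite sides of EB3. The ratio of Nqo1 to Hmox1 was 0.710, 0.680 and 0.642 in A6, B8 and C4, and 0.412, 0.377 and 0.371 in EB3-0, EB3-1 and EB3-2. This ratio was formed after both values were seen, so no test is given. Biliverdin reductase B (Blvrb) was at 35.4 ± 3.54 against 23.0 ± 5.02 RPKM (clones against EB3, SD, n = 3; limma, adjusted p = 0.102), with all clones above all cultures, unlike Hmox1. Biliverdin reductase A (Blvra), named after its values were seen, was at 4.78 ± 0.984 against 4.58 ± 0.652 RPKM. Its groups overlapped (limma, adjusted p = 0.918).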
